A study of Mus musculus with 18 samples.

Results

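The Notch pathway was followed through the myelination of mouse dorsal root ganglion explants by 10 of its genes. They are the receptors Notch1, Notch2 and Notch3, the ligands Jag1, Jag2, Dll1 and Dll4, and the target genes Hes1, Hey1 and Hey2. A probe was counted to a gene where the accession on the array mapped to that symbol in RefSeq, which gave 12 probes for the 10 genes, out of 55681 probes and 20145 genes named in this way. The explants were taken from C57BL/6J embryos at E13.5, kept on matrigel in growth medium for 12 days, and collected at day 0 before the myelination medium was added (the control group of the labels), at day 10 of that medium (early myelination) and at day 22 of it (abundant mature sheaths). Each day had 3 batches, which the series' design text describes as separate pools of embryos and the sample titles number as mice, and 2 arrays per batch that the labels call technical, so each day had 6 arrays and the series 18. Since every later culture had the medium, its action and ageing of the cultures cannot be told apart. All groups are labelled with the same strain, and the labels name no genetic change.

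Notch is a receptor that is cut when a ligand on a neighbouring cell binds it. The freed inner part enters the nucleus, joins the DNA-binding protein RBPJ and its Mastermind coactivators, and switches on repressors of the Hes and Hey families. In peripheral nerve, Notch signalling is known to promote the formation and division of immature Schwann cells and to oppose myelination. In blood vessels, Notch3 is the receptor of mural cells, and Dll4 is a ligand of endothelial cells.

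RBPJ is known to bind a short DNA motif, and the windows of target genes that hold its longer form are printed here. Of the 10 members, 8 had an entry in the RefSeq promoter table (build GRCm38.p6), and Hes1 and Hey1 had none. Of the 7 other targets searched, 4 had an entry (Hes5, Hes6, Hes7 and Nrarp). The 250 bases before each start were searched on both strands for the RBPJ core TGGGAA, the longer form GTGGGAA that contains it, the N-box CACNAG and the E-box CACGTG, which Hes and Hey proteins are known to bind. The windows of Hey2 (chr10:30842784-30843033, minus strand), Hes5 (chr4:154960673-154960922, plus strand) and Hes7 (chr11:69120203-69120452, plus strand) follow, 5′ to 3′ along the gene, with the longer RBPJ site in capitals on whichever strand it lies.
Hey2: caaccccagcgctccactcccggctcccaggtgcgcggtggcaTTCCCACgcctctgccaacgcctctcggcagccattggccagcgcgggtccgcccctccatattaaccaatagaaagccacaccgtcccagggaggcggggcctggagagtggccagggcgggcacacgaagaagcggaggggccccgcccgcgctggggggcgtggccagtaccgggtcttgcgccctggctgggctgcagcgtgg
Hes5: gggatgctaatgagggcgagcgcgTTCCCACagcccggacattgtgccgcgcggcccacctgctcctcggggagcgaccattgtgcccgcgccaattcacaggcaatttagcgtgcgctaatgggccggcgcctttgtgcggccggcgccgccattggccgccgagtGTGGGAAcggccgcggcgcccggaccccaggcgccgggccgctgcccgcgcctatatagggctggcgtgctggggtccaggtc
Hes7: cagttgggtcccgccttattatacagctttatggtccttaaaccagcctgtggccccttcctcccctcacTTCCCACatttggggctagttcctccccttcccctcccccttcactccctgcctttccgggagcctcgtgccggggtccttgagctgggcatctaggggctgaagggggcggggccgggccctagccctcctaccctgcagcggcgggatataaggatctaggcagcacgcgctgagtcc

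Hey2 held 1 longer site, with its first base at -207 from the start, and Hes7 held 1 at -180. Hes5 held 2, at -226 and at -83, which face in opposite directions. The longer form occurred in 5.42% of the 32851 promoters of the table and the core in 21.6% of them, so a match is a description of these letters and not a site in use. No window of a receptor or ligand held the core. The N-box occurred in 36.7% of all promoters and, among the members, stood in the windows of Notch1, Notch2, Notch3 and Dll4. Among the other targets, it stood in the windows of Hes7, Nrarp and 1 of the 2 entries of Hes6. Those of Jag1, Jag2 and Dll1 held none of the 4 motifs. The E-box occurred in 6.02% of all promoters and, among the windows searched, in that of Nrarp.

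**Figure D1:**
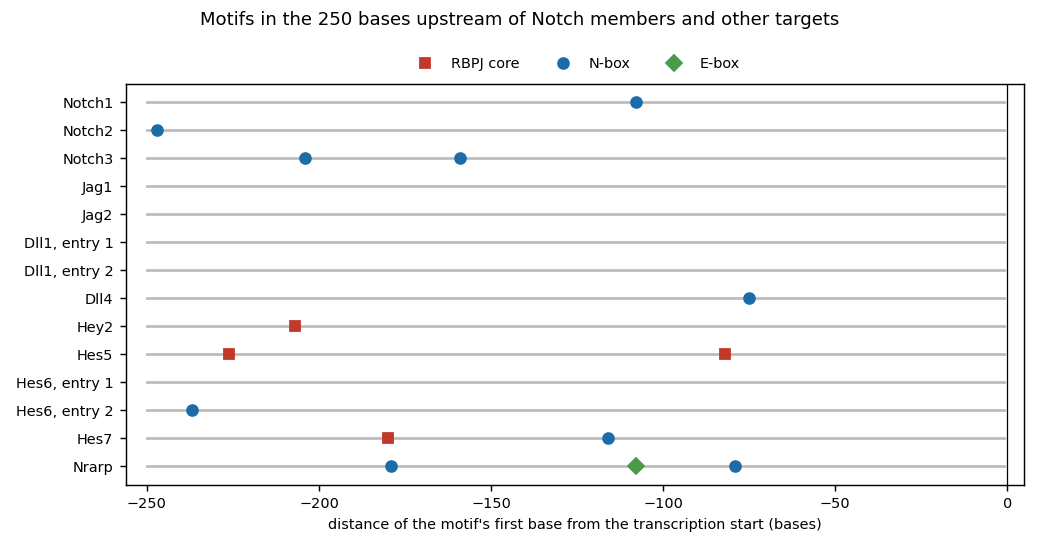
Each line is the window of 250 bases before the transcription start in a RefSeq promoter entry, the x axis is the distance of a motif's first base from the start in bases, and symbols mark the RBPJ core (squares), the N-box (circles) and the E-box (diamond). The core appears in the windows of Hey2, Hes5 and Hes7, 2 times in that of Hes5, and in none of the receptors or ligands.

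Levels are log2 of the processed signal of a probe minus the 75th percentile of its array, so a value of 0 is the level of that percentile. They compare days for a probe, and not a probe with another. Differences are log2 differences ± the standard error of a limma fit to 9 batch means, n = 3 batches per day, with p-values adjusted (Benjamini-Hochberg) over 22855 features and a threshold of 0.05. The 75th percentiles ran from 584 to 747, and 54.8 to 61.5% of spots passed the scanner software's test against background. Precision is limited by the number of batches, 3 per day. The batch of an array is not settled: of the 18 columns of the deposited value table, 12 matched the array file of a different sample from that day. The differences between days were therefore tested with the batches of the array files and with those of the value table, and "rose" and "fell" are kept for genes that passed both. The second array of batch 1 at day 0 stood apart, with a mean level of the 10 sensory neuron markers of 2.35 against 3.02 to 3.29 on the other day 0 arrays. It had the lowest day 0 level of Notch3, Jag2 and Hey2 and the highest of Notch2, Hes1 and Hey1. Leaving it out gave the same counts of members called, 3, 0 and 4 in the 3 comparisons below. Sensory neuron markers (10 of 10 tested) and Schwann cell markers (8 of 8) were above background, as the label of the tissue says.

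Of the 10 members, 8 were above background and tested. At day 10 the ligand Jag1 and the target Hes1 fell by 1.19 and 0.81 on the log2 scale, and at day 22 the ligand Jag2 and the target Hey1 had fallen by 0.64 and 0.72 from day 0. No member rose in any comparison. The 3 receptors did not pass the test on their brightest probes. Dll1 and Dll4 were not well above background on any array.

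Against day 0, 3 of the 8 members were lower at day 10 with the batches of the array files (Jag1, Hes1 and Hey1), where 17.8% of all features were called lower. With both assignments 2 were lower (Jag1 and Hes1), where 7.68% of features were. The median difference of the 8 members was -0.40, with 8 of 8 below 0, against -0.06 over all features, of which 58.3% were below 0. In bulk cultures, fewer cells of a type and less RNA per cell cannot be told apart. Against day 0, 4 of 8 members were lower at day 22 (Jag1, Jag2, Hey1 and Hey2), where 27.3% of all features were, and 2 with both assignments (Jag2 and Hey1), where 18.6% of features were. The count with both assignments at day 22 is thus near the background. The median of the members was -0.56 there, against -0.08 over all features. Between day 10 and day 22, 0 members passed in either direction with either assignment, where 4.19% of features were called higher and 5.40% lower with the batches of the array files, and 0.490% and 1.43% with both. The median of the members was 0.17 there, with 3 of 8 below 0. At an unadjusted p under 0.05 limma gave 2 members there, Jag2 lower and Notch2 higher. The share of all features at that unadjusted threshold was not computed, so the count has no background.

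**Figure D2:**
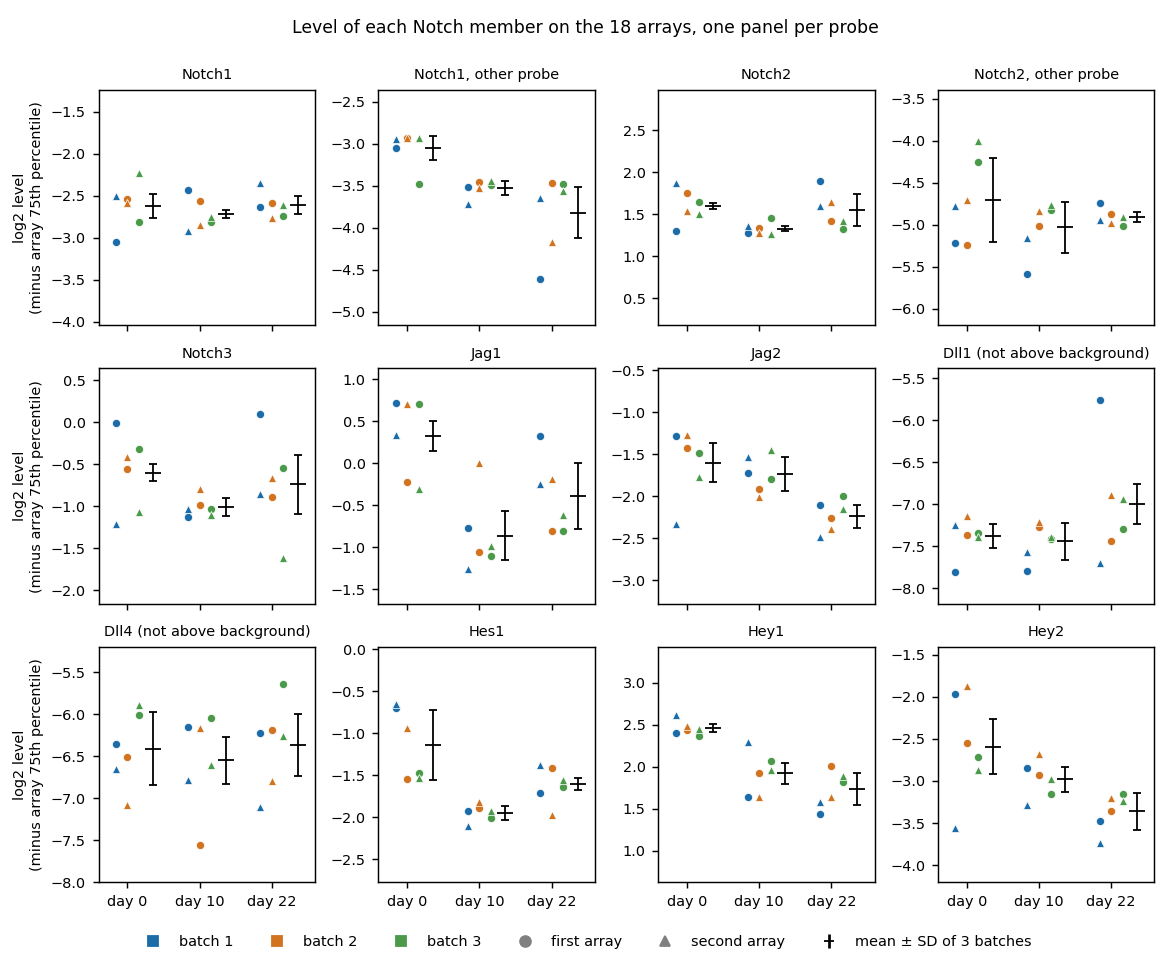
Each panel is a probe, the y axis is the log2 level minus the 75th percentile of the array, and points are the 18 arrays by day, coloured by batch (circles, first array of a batch; triangles, second array). Black bars give the mean ± SD of 3 batches. Hes1 and Hey1 at day 10 lie below every day 0 array, and Hey1 does at day 22 too, whereas the days overlap for Notch1 on its brightest probe.

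No receptor passed the test on its brightest probe. Notch2 had day 0 levels of 1.30, 1.60 and 1.87 (lowest, median and highest of 6 arrays), day 10 levels of 1.27, 1.31 and 1.45 and day 22 levels of 1.32, 1.51 and 1.89. The 3 days overlapped. The difference of day 10 from day 0 was -0.27 ± 0.10 (adjusted p = 0.0661, limma), and that of day 22 from day 0 was -0.05 ± 0.10 (adjusted p = 0.715). A second probe of Notch2 was well above background on 5, 4 and 4 of 6 arrays of days 0, 10 and 22 and was not tested.

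Notch3 had levels of -1.21, -0.49 and -0.01 at day 0, of -1.13, -1.03 and -0.80 at day 10 and of -1.62, -0.75 and 0.10 at day 22. The arrays of a day were far apart, with a pooled SD of 0.48 between the 2 arrays of a batch, against a median of 0.21 over all features. The difference at day 10 was -0.41 ± 0.16 (adjusted p = 0.0951) and that at day 22 against day 0 was -0.15 ± 0.16 (adjusted p = 0.508). On each of the 3 days, the array with the highest Notch3 was also the array with the highest mean of the 6 mural cell markers tested: 2.13 at day 0, 2.07 at day 10 and 3.05 at day 22. The same arrays were the highest of their day in the mean of the 8 endothelial markers tested (-1.59, -1.65 and -1.68). At day 10 and day 22 they were also the highest in fibroblast (5.62 and 6.02) and perineurial markers (1.11 and 1.82). The array lowest in Notch3 was the lowest in mural markers at day 22 (1.43) but not at day 0 (1.41) or day 10 (1.43). The level of the mural list ran from 0.86 to 2.13 at day 0, from 1.40 to 2.07 at day 10 and from 1.43 to 3.05 at day 22. Of its 6 genes, 1 was higher and 1 lower at day 10 against day 0, and 3 were higher at day 22, 1 of them with both assignments. Abcc9, one of these 3, was above background on 3, 5 and 6 arrays and so passed the filter only through day 22. The 4 listed markers that did not pass it were above background on 1, 2 and 4 arrays (Rgs5), 0, 1 and 4 (Myh11), 0, 0 and 1 (Kcnj8) and none (Des). The coincidence was noticed after the values were seen, and its part in the result was not tested.

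Notch1 had 2 probes that did not behave alike. On the brighter probe its levels were -3.05, -2.56 and -2.23 at day 0, -2.92, -2.78 and -2.43 at day 10 and -2.76, -2.62 and -2.35 at day 22, and the 3 days overlapped. The differences were -0.10 ± 0.09 at day 10 and 0.01 ± 0.09 at day 22 against day 0 (adjusted p = 0.464 and 0.961). On the dimmer probe the levels were -3.48, -2.94 and -2.93 at day 0, -3.72, -3.51 and -3.44 at day 10 and -4.61, -3.60 and -3.47 at day 22. On that probe the difference was -0.48 at day 10 (adjusted p = 0.0434 and 0.175 with the 2 assignments) and -0.78 at day 22 against day 0 (adjusted p = 0.00367 and 0.0284). So the call for Notch1 turns on which probe stands for the gene, and no direction is given for it.

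At day 10, Jag1 had the largest difference of the 8 tested members. Jag1, the ligand known from many epithelia and vessel walls, had levels of -0.31, 0.53 and 0.72 at day 0 and of -1.26, -1.02 and 0.00 at day 10. It had levels of -0.81, -0.42 and 0.32 at day 22. Day 10 lay below day 0 but for 1 array at 0.00, and day 22 overlapped both. Jag1 fell to day 10 by 1.19 ± 0.22, a 2.28-fold drop (adjusted p = 0.00530 with the batches of the array files and 0.0466 with those of the value table). At day 22 it stood at -0.72 ± 0.22 from day 0 (adjusted p = 0.0269), which was not called with the value table's batches (adjusted p = 0.123) and was called when the batch was also a block there (adjusted p = 0.0240). The difference of day 22 from day 10 was 0.47 ± 0.22 (adjusted p = 0.210). Whether its second interval differed from its first was tested as the change of pace, the later difference less the earlier. That was 1.66 ± 0.37 for Jag1 and did not pass (adjusted p = 0.0523 and 0.310 with the 2 assignments), nor did it for any other member, where 1.86% of features were called higher and 1.68% lower with the batches of the array files and 0 with both. At an unadjusted p under 0.05 limma gave 4 members there, Notch2, Notch3, Jag1 and Hes1, all above 0. The share of all features at that unadjusted threshold was not computed, so this count has no background and is not read as a result.

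Some arrays high or low in Jag1 were also high or low in markers of connective tissue cells, which was noticed after the values were seen. The 2 day 0 arrays lowest in Jag1, at -0.31 and -0.22, were the 2 lowest in the mean of the 8 fibroblast markers (4.05 and 4.75), of the 6 perineurial markers (0.36 and 0.86) and of the 9 macrophage markers (-1.90 and -1.78). These 2 arrays belong to different batches by their files and to the same batch by the value table. The arrays highest in Jag1 at day 10 and day 22 were the highest of their day in fibroblast (5.62 and 6.02), perineurial (1.11 and 1.82) and mural markers (2.07 and 3.05). The array lowest in Jag1 at day 10 was the lowest of its day in mural markers (1.40) but the second highest in perineurial (1.01) and the highest in macrophage markers (1.70). As whole lists, 1 of 8 fibroblast markers was higher and 2 lower at day 10 against day 0, with levels of 4.05 to 5.79 at day 0, 4.96 to 5.62 at day 10 and 5.05 to 6.02 at day 22. Of the perineurial markers, 1 of 6 was higher and 2 lower, with levels of 0.36 to 1.84, 0.82 to 1.11 and 0.68 to 1.82. Their part in the fall of Jag1 was not tested.

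Jag2, the other ligand of the Jagged class, had levels of -2.33, -1.46 and -1.27 at day 0, of -2.01, -1.76 and -1.45 at day 10 and of -2.49, -2.21 and -2.0 at day 22. Day 22 was below every day 0 array except the one that stood apart. Jag2 fell by 0.64 ± 0.15 from day 0 to day 22, a 1.56-fold drop (adjusted p = 0.00834 and 0.0142 with the 2 assignments). Without that array the difference was -0.81 (adjusted p = 0.00244). At day 10 the difference was -0.14 ± 0.15 (adjusted p = 0.513), and from day 10 to day 22 it was -0.50 ± 0.15 (adjusted p = 0.0715). The day 10 differences of Jag1 and Jag2 were not tested against each other.

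Dll1 and Dll4, ligands of the Delta class, had a probe each and were well above background on 0 of 18 arrays, so neither has a fold. Their measured levels ran from -7.81 to -5.76 and from -7.56 to -5.64 over the 18 arrays. Such levels carry no order between days. Of the 11 endothelial markers listed, 8 passed the filter, with a mean level of -2.50 to -1.59 at day 0, of -1.99 to -1.65 at day 10 and of -2.0 to -1.68 at day 22. Of these 8, 2 were higher and 1 lower at day 10 against day 0 (1 and 0 with both assignments), and 1 was higher and 2 lower at day 22 (1 and 1). Esam, a junction protein, rose by 2.47 ± 0.24 to day 10 (adjusted p = 0.000517 and 0.00408). It was well above background on 5, 6 and 6 arrays of the 3 days, and so passed the filter only through the later days. Cdh5, Kdr, Flt1 and Emcn were above background on all arrays and passed in no comparison. Pecam1, also above background on all arrays, fell by 0.30 ± 0.08 from day 0 to day 22 (adjusted p = 0.0192 and 0.0292). Eng was at 0.65 ± 0.20 at day 10 against day 0 (adjusted p = 0.0423 and 0.189). Cldn5 was well above background on 6, 1 and 0 arrays of the 3 days. The 3 listed markers that did not pass the filter were Tek (2, 0 and 0 arrays), Erg (1, 0 and 0) and Tie1 (none). Dll4 was not well above background at day 0 either, where Cldn5 was.

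Of the 3 targets, Hes1 fell to day 10 and Hey1 to day 22. Hes1, a repressor that many cell types use to keep progenitors from differentiating, had levels of -1.55, -1.21 and -0.65 at day 0, of -2.10, -1.93 and -1.82 at day 10 and of -1.97, -1.60 and -1.38 at day 22. Every day 10 array was below every day 0 array, and day 22 overlapped both. Hes1 fell by 0.81 ± 0.18 to day 10, a 1.75-fold drop (adjusted p = 0.0135 and 0.0285 with the 2 assignments). At day 22 it was -0.47 ± 0.18 from day 0 (adjusted p = 0.0691) and 0.33 ± 0.18 from day 10 (adjusted p = 0.294). The 3 day 0 batches of Hes1 were at -0.68, -1.25 and -1.50, whereas those of Hey1 were at 2.50, 2.46 and 2.41.

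Hey1, a repressor of the Hes-related family, had levels of 2.37, 2.44 and 2.61 at day 0, of 1.64, 1.94 and 2.29 at day 10 and of 1.44, 1.73 and 2.01 at day 22. All arrays of day 10 and of day 22 were below all arrays of day 0. Hey1 fell by 0.72 ± 0.11 to day 22, a 1.65-fold drop (adjusted p = 0.00108 and 0.00936 with the 2 assignments). At day 10 the difference was -0.54 ± 0.11 (adjusted p = 0.00822), which missed the threshold with the value table's batches (adjusted p = 0.0529) and passed it when the batch was also a block there (adjusted p = 0.0429). The later interval added -0.19 ± 0.11 (adjusted p = 0.317). The day 22 call held in all 26 alternatives tried, with differences of -0.97 to -0.61.

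Hey2, its close relative, had levels of -3.56, -2.64 and -1.87 at day 0, of -3.28, -2.96 and -2.68 at day 10 and of -3.74, -3.30 and -3.15 at day 22. The lowest day 0 value was again the array that stood apart, and the next was -2.87, above all day 22 arrays. Hey2 was at -0.77 ± 0.18 from day 0 at day 22 (adjusted p = 0.00906), was not called with the value table's batches (adjusted p = 0.0647) and was called when the batch was also a block there (adjusted p = 0.0331). Without that array the difference was -1.03 (adjusted p = 0.00620). The steps to day 10 and from day 10 were -0.39 ± 0.18 and -0.38 ± 0.18 (adjusted p = 0.142 and 0.222).

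**Figure D3:**
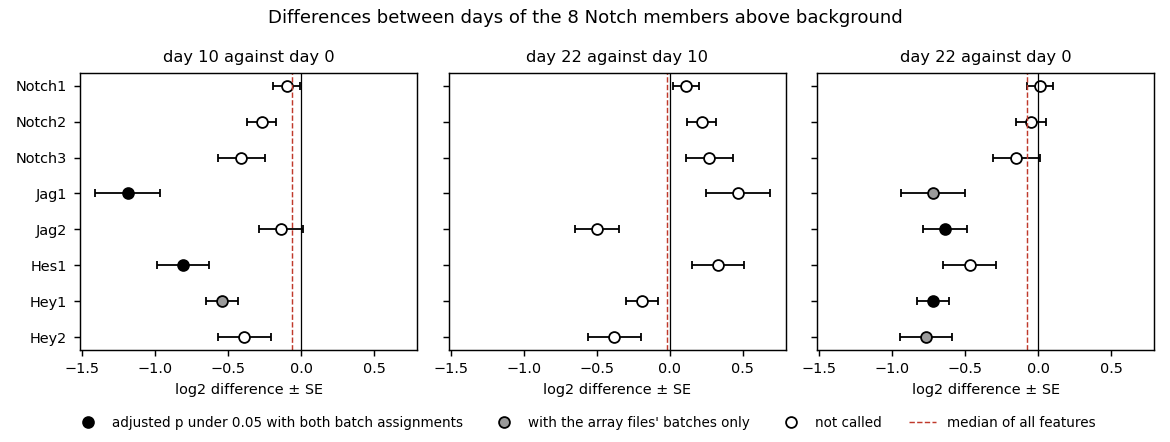
Points are the log2 differences between days of the 8 tested members and bars the standard error of the limma fit (n = 3 batches per day). Filled points passed with both assignments of batches, grey points with those of the array files alone, open points with neither, and the dashed line is the median of all features. Jag1 and Hes1 are filled at day 10, and Jag2 and Hey1 at day 22 against day 0.

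With the value table's batches and the batch as a replicate block, the same members were called as with the batches of the array files, 3 at day 10 and 4 at day 22. The assignment left the differences as they were but moved the spread between batches for some members. For Jag1 the SD between batches was 0.30 by the files and 0.45 by the value table, and for Hey2 it was 0.24 and 0.38. For Jag2 and Hes1 it was the same by both, 0.19 and 0.25. The SD between the 2 arrays of a batch moved the other way, from 0.48 to 0.28 for Jag1 and from 0.43 to 0.27 for Hey2. Over all features, the median SD between the 2 arrays of a batch was 0.21 by the files and 0.17 by the value table. The median SD between batches was 0.15 and 0.18. The SD between batches is that of means of 2 arrays and the other is that of single arrays. The 2 kinds of SD are therefore not set against each other. Which assignment is right was not tested.

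The rest of the pathway was read from a list of 48 genes, of which 45 had a matched probe and 44 were tested. Hes3 had a probe and did not pass the filter. At day 10 against day 0, 3 of the 44 were higher and 11 lower (2 and 4 with both assignments), with a median of -0.10. These 14 calls became 8, 9 and 9 without batch 1, 2 and 3 of day 10, and 8 with no filter on dim probes. At day 22 against day 0, 6 were higher and 18 lower (5 and 11 with both), with a median of -0.20. Between day 10 and day 22, 2 were higher and 1 lower (1 and 0 with both), and these 3 calls became 7 without batch 3 of day 22, 14 with the slide as a block, and 1 when any 1 of 6 other batches was left out (batch 3 of day 0, each batch of day 10, and batches 1 and 2 of day 22). Of all features, 11.4% were called higher and 17.8% lower at day 10 against day 0 (5.71% and 7.68% with both assignments), and 17.1% and 27.3% at day 22 against day 0 (12.6% and 18.6% with both). The counts by role below are to be read against these shares.

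Of the other target genes, 5 of 6 were tested. Hes5, a target known from neural and glial progenitors, had levels of -3.83, -3.41 and -2.16 at day 0, of -4.62, -4.32 and -3.94 at day 10 and of -5.80, -5.39 and -4.93 at day 22. The days did not overlap. Hes5 fell 2.07-fold to day 10 (-1.05 ± 0.30, adjusted p = 0.0316 and 0.0387 with the 2 assignments). At day 22 the measured difference from day 0 was -2.16 ± 0.30 (adjusted p = 0.000744 and 0.000934). Its probe was well above background on 6, 6 and 3 of 6 arrays, so it passed the filter through the earlier days, the day 22 level is close to the limit of measurement, and no fold is given there.

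Heyl, a target known from mural cells and muscle, had levels of -2.36, -1.47 and 0.13 at day 0, of -3.86, -3.39 and -1.89 at day 10 and of -4.32, -3.39 and -2.67 at day 22. Day 22 lay below day 0, and day 10 did but for 1 array. Heyl fell 4.86-fold to day 22 (-2.28 ± 0.36, adjusted p = 0.00130 and 0.0194), and at day 10 it was at -1.99 ± 0.36 (adjusted p = 0.00501 and 0.0568, and 0.0241 with the batch also a block in the value table's batches). The array highest in Heyl at day 10 was the one highest in Jag1 and Notch3. That did not hold at day 0 or at day 22, where a different array was highest in Heyl. Hes7, whose window holds the longer RBPJ site as those of Hey2 and Hes5 do, was at -0.14 ± 0.11 at day 22 against day 0 (adjusted p = 0.316).

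Among the other receptor and ligands, 4 of 5 were tested and 2 fell by day 22. Dlk1, a Delta-like protein without the domain that canonical ligands use to bind Notch, fell 4.70-fold to day 22 (-2.23 ± 0.50, adjusted p = 0.00724 and 0.0141), with day 0 levels of -1.86, -0.66 and 1.83 and day 22 levels of -3.44, -2.83 and -1.58 that overlapped. At day 10 it was at -1.70 ± 0.50 (adjusted p = 0.0341 and 0.0647). Dll3 was the other, at -0.57 ± 0.15 (adjusted p = 0.0157 and 0.0492), and lost its call with the batch as a block in the value table's batches (adjusted p = 0.0504).

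Of the 6 genes that put sugars on the receptor or cut it during maturation, 1 was higher and 1 lower at day 22 against day 0. Mfng, which lengthens the fucose on Notch and so changes which ligands it answers to, rose 6.16-fold (2.62 ± 0.54, adjusted p = 0.00497 and 0.0218). Its levels were -4.54, -2.81 and -1.39 at day 0 and -2.57, 0.03 and 1.0 at day 22, so the days overlapped. The array lowest in Mfng at day 22 was the lowest in macrophage markers (1.17), and the 2 lowest at day 0 were the 2 lowest in them there. Of 9 macrophage markers, 8 rose to day 22, and their mean level went from -1.90 to 0.06 at day 0 to 1.17 to 3.64. Ptprc was well above background on 5 of 6 arrays at day 0 and on all 6 at the later days. Their part in the rise of Mfng was not tested. Furin, the protease that cuts the receptor on its way to the surface, was at 0.34 ± 0.08 from day 10 to day 22 (adjusted p = 0.0441 and 0.154).

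Of the 9 genes of receptor cleavage, 7 were tested. Psen2, a catalytic subunit of gamma-secretase, rose by 0.48 ± 0.08 to day 10 (adjusted p = 0.00351 and 0.0378) and by 0.65 ± 0.08 to day 22 (adjusted p = 0.000392 and 0.00558). At day 22, Adam10, which makes the cut that precedes it, and Ncstn, a further subunit, fell by 0.45 ± 0.14 and 0.40 ± 0.12.

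Of the 13 genes of ligand uptake and inhibition, 2 were higher and 4 lower at day 22 against day 0, with 2 and 2 by both assignments. Neurl1a, a ubiquitin ligase that acts on Notch ligands, rose by 0.72 ± 0.12 to day 10 (adjusted p = 0.00368 and 0.0244), and its second probe went the same way, from a mean of 1.49 to 2.16. Nrarp, a target that limits Notch activity, was at 0.94 ± 0.26 at day 10 with the batches of the array files and was not called with the other (adjusted p = 0.0301 and 0.226). Its levels were -2.65 to -2.0 at day 0, -1.79 to -1.19 at day 10 and -4.11 to -1.28 at day 22. Day 10 was above day 0 on every array, and day 22 was spread over both.

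Of the 9 genes of the nuclear complex, 1 was higher and 6 lower at day 22 against day 0, with 1 and 3 by both assignments. Of the 3 Mastermind coactivators, Maml2 was higher and Maml1 and Maml3 were lower at day 22 against day 0 with the batches of the array files. Maml2 rose from day 10 to day 22 by 0.57 ± 0.07 (adjusted p = 0.00416 and 0.0224), with levels of -2.88 to -2.64 and then of -2.23 to -2.01 that did not overlap, and from day 0 by 0.58 ± 0.07 (adjusted p = 0.000402 and 0.00237). Maml1 fell by 0.57 ± 0.07 to day 10 (adjusted p = 0.00132 and 0.00862) and by 0.63 ± 0.07 to day 22 (adjusted p = 0.000278 and 0.00169). Maml3 was at -0.61 ± 0.13 at day 22 against day 0 (adjusted p = 0.00573 and 0.0540, and 0.0196 with the batch also a block in the value table's batches) and at -0.58 ± 0.13 from day 10 to day 22 (adjusted p = 0.0306 and 0.192). Rbpj itself was at 0.32 ± 0.14 at day 22 against day 0 (adjusted p = 0.0879).

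**Figure D4:**
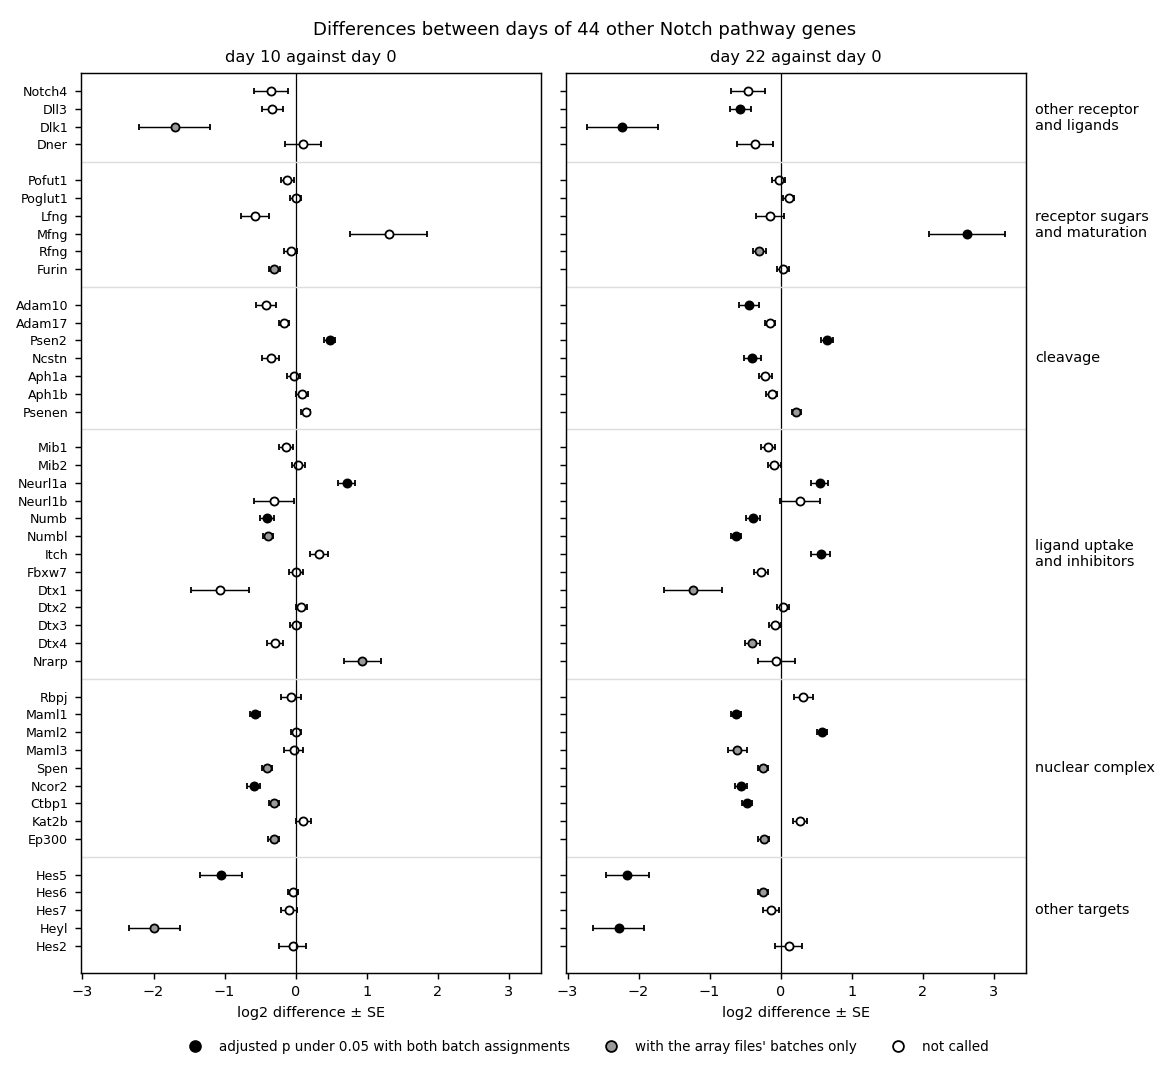
Points are the log2 differences of 44 other pathway genes at day 10 and day 22 against day 0, bars are the standard error (n = 3 batches per day), and genes are grouped by role. Filled points passed with both assignments of batches and grey points with those of the array files alone. At day 22, Heyl lies at -2.28, Dlk1 at -2.23 and Hes5, measured on 3 of 6 arrays there, at -2.16, and Mfng lies at 2.62.

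Cell cycle markers and some cell type markers also differed between days. Of all features, 27.3% were called lower and 17.1% higher at day 22 against day 0 (18.6% and 12.6% with both assignments). At day 10 against day 0 the shares were 17.8% and 11.4% (7.68% and 5.71%), and from day 10 to day 22 5.40% and 4.19% (1.43% and 0.490%). Counts of markers, here and above, are to be read against these shares. All 11 cell cycle markers tested were lower in each comparison (8, 11 and 11 with both assignments), with a mean level of 1.97 to 2.42 at day 0, 0.59 to 1.20 at day 10 and -2.17 to -0.21 at day 22. Of the 8 immature Schwann cell markers, 6 were lower and 1 higher at day 22 against day 0 (4 and 0 with both assignments), with levels of 3.65 to 3.95 and then of 2.81 to 3.67. Among them Cdh2, Ncam1, Ngfr and Gap43 fell by 1.29, 1.05, 0.92 and 0.76. The marker that was higher was Gfap, by 1.29 ± 0.33 (adjusted p = 0.0135 and 0.0535). Pou3f1 was higher by 1.12 ± 0.32 at day 10 (adjusted p = 0.0306 and 0.209). The 8 Schwann cell markers were near the shares of all features at day 22 against day 0, with 3 lower and 1 higher (1 and 0 with both assignments). Their mean level was 3.97 to 4.28 and then 3.39 to 4.08. The part of all these markers in the falls of the Notch targets was not tested.

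For each member called in a comparison, the 2 genes with the most similar pattern were taken by the Pearson correlation of the 9 batch means over all 3 days. These points share their arrays, and the correlations are given without a test. Each was picked as among the highest over 14543 features with a symbol, and no background was computed. Hey1 was most like Plekha5 (0.992) and Dagla (0.990), an enzyme that makes an endocannabinoid. Jag1 was most like Galnt4 (0.987), an enzyme that starts mucin-type sugar chains, and Nrp1 (0.976), a co-receptor for semaphorins. Jag2 was most like Clgn and Lysmd4 (both 0.988), Hes1 like Ric1 (0.980) and Ctnnd1 (0.970), and Hey2 like Rflna (0.977) and Gtf2ird2 (0.970). With batches taken from the value table, the 10 correlations ran from 0.743 for Hey2 with Gtf2ird2 to 0.979 for Hey1 with Dagla.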

How the data were processed

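Total RNA of 18 samples was read on one-colour Cy3 Agilent arrays. Per the file headers, the authors extracted a background-subtracted intensity per spot with Feature Extraction 10.7.1.1 (the submitters' processing notes give 10.7.1) on a design named mm9, with flags of other kinds (well above background, outlier, saturated). The deposited value table also holds intensity, whose making is not given in the sources used here. Here the log2 intensity minus the array's 75th percentile was taken without outlier spots (0 were saturated), and probes well above background on all 6 arrays of a day were kept (30432 of 55681). The brightest probe stood for a gene. The 2 arrays of a batch were averaged and fitted with limma 3.58.1 (R 4.3.3) by day. Figures used matplotlib 3.10.9. Genes were named by a rule: all members, the 3 called pathway genes with the largest change per comparison and direction, and the 2 genes most like each called member. Further genes in the text (Adam10, Ncstn, Maml1, Rbpj, Dll3, Hes3 and Hes7, and the marker genes) were chosen after their values were seen. The members and lists were chosen with earlier results of these data known. The labels say that a replicate number marks a shared batch. Deviations of same-numbered batches correlated at -0.12 to 0.37 across features (6 of 9 above 0.1), and at -0.084 to 0.44 (8 of 9) with the value table's batches. The normexp alternative (offset 50) used the median spot signal, since the mean signal is not in the columns used here. The script was tested on simulated data.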

Additional observations from a re-analysis of the deposited data

How the results depend on the processing

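Counts of members called refer to day 10 against day 0, day 22 against day 10, day 22 against day 0 and the change of pace, which were 3, 0, 4 and 0. With the batch as a replicate block they were 3, 0, 4 and 0 under both assignments of batches. At day 10 the count was 1 in the authors' value table, 1 within slide 1, 0 within slide 2, 0 with first arrays only and 1 with second arrays only, and 3 to 5 without a replicate (5 without batch 1 or batch 3 of day 22, which sets the spread, with Notch2 and Notch3 added). From day 10 to day 22 it was 1 with the slide as a block and 1 with all arrays under duplicateCorrelation (Jag2 in both), and 0 to 1 without a replicate (1, Notch2, without batch 3 of day 22). At day 22 against day 0 it was 2 in the authors' value table, 2 with the value table's batches, 1 within slide 1, 1 within slide 2 and 1 with second arrays only. For the change of pace it was 1 after normexp, 1 with probes above background on all 18 arrays, 3 with the slide as a block, 2 under duplicateCorrelation and 0 to 1 without a replicate. Fits within a slide or on single arrays rest on fewer arrays. Leaving out a batch of a day leaves 2 there. Notch1 at day 22 against day 0 was at 0.01 ± 0.09 on its brightest probe, which gives no direction. It was at -0.78 on its other probe (with either assignment of batches) and at -0.38 with the mean of its probes. Jag1 at day 22 lost its call in 11 of 26 alternatives, among them without batch 1 or batch 2 of day 0 (adjusted p = 0.0854 and 0.0535) and without batch 2 or batch 3 of day 22 (0.0817 and 0.0760). Hes1 at day 22 passed without batch 3 of day 0 (-0.65, adjusted p = 0.0181). The cause was not tested. Each member called against day 0 was below 0 in 26 of 26 alternatives of the comparison that called it. Of the 44 other pathway genes, 14, 3 and 24 were called in the 3 comparisons, 4, 1 and 15 in the authors' value table, 6, 1 and 16 with the value table's batches, 8, 1 and 16 with no filter on dim probes, 17, 14 and 27 with the slide as a block and 17, 8 and 25 under duplicateCorrelation. They were 1, 0 and 10 within slide 1, 1, 0 and 8 within slide 2, 1, 0 and 8 with first arrays only, and 7, 1 and 11 with second arrays only. Without a replicate they ran from 8 to 17, from 1 to 7 and from 17 to 23. At day 10, 2601 features were higher and 4074 lower, and 1530 and 1575 in the authors' value table. The alternatives with the other probe of Notch1 and with an array of day 0 left out were chosen after seeing the data.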
